A study of Mus musculus with 4 samples.

Results

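The 37 genes described here are genes of glucose uptake, glycolysis and the response to low oxygen, measured in the fetal brain of C57BL/6J mice. They are 4 glucose transporters, 16 glycolytic enzymes, 3 genes that control glycolysis or the fate of pyruvate, 13 targets of the hypoxia response and Hif1a, the oxygen-regulated subunit of hypoxia-inducible factor. Members were chosen by name, with the older symbol Pkm2 standing for Pkm, and each was read from its brightest probe above background. All 37 had a probe among the 28504 gene names on the array, with 68 probes between them, and 32 were measured in FD and 31 in FR.

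Glucose is the main fuel that a fetus receives from its mother. It enters brain cells through facilitative transporters of the Slc2a family and is split by the glycolytic enzymes into pyruvate. Pyruvate dehydrogenase commits pyruvate to oxidation in the mitochondria, and lactate dehydrogenase turns pyruvate into lactate. Hypoxia-inducible factor is broken down when oxygen is present, after prolyl hydroxylases of the Egln family have marked its alpha subunit. When oxygen is low it binds a short DNA core and raises transcription of many glycolytic genes together with genes such as Vegfa, Bnip3 and P4ha1.

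In the food deprivation group (FD), pregnant dams had no food overnight on gestation day 17. In the food restriction group (FR), the daily ration of the dams was 50% of control intake, over gestation days 10 to 17. Control dams of both comparisons ate ad libitum. Fetuses were delivered by caesarean section on gestation day 18, a day that the design text gives with FR and leaves implicit for FD. Brain RNA of 5 fetuses made up the pool of a condition. A treated and a control pool were co-hybridised on 2 arrays in opposite dyes, so a condition is 1 pool and no test or p-value exists for any value here. The number of litters behind a pool was not given, and neither was whether FD and FR used the same control pool. In such bulk RNA, fewer cells of a type and less RNA per cell cannot be told apart.

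Every ratio is log2(treated/control) after loess, with the sign of the swapped array turned. The treated pool was labelled with Cy5 on array 1 and with Cy3 on array 2. The same RNA was used on both, so their spread is technical. A mean over both arrays had a technical SD of 0.0731 over 23376 probes once the dye effect common to FD and FR was removed. The ratios of the arrays correlated across genes at r = 0.131 in FD and 0.409 in FR. Outlier flags of the scanner removed 3.88% to 8.32% of the spots per array but 18.7% to 42.3% of the spots with a mean log2 intensity over 10, and glycolytic genes have some of the brightest probes. Members lost in this way are therefore also given with flagged spots kept, a setting chosen after the values had been seen. Most flags were in the green channel (Cy3) only, for example 2278 of 2366 flagged spots on FD array 1 and 3489 of 3607 on FR array 2. A kept spot thus mostly has a doubtful Cy3 reading, of the control pool on array 1 and of the treated pool on array 2. Markers of other tissues differed between the pools: 8 of 12 skeletal muscle genes were at least 1.5-fold lower on both FD arrays, and the neutrophil marker S100a9 was 2.07-fold higher in FR. Neuronal markers such as Snap25, Stmn2 and Dcx were measured in both comparisons.

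No member differed by 1.5-fold on both arrays in FD or in FR. In FD, 0.215% of 18160 measured genes passed that size, and in FR 1.02% of 18762 did. At the smaller size of 1.2-fold on both arrays, 1 of 32 measured members passed in FD, against 2.17% of all genes, and 5 of 31 in FR, against 8.01% of all genes. The FD gene was P4ha1, which was lower. In FR, Slc2a4 and Slc2a8 were higher, and Pdk1, Egln3 and P4ha1 were lower. Under median centring without loess all 6 of these calls were lost, and normexp fitted on all spots ended those of FR other than Pdk1; the sign of each mean held under these settings. Over all measured members the median log2 ratio was -0.01 in FD and -0.04 in FR, where the median of all genes was 0.00 in FD and 0.01 in FR.

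**Figure D1:**
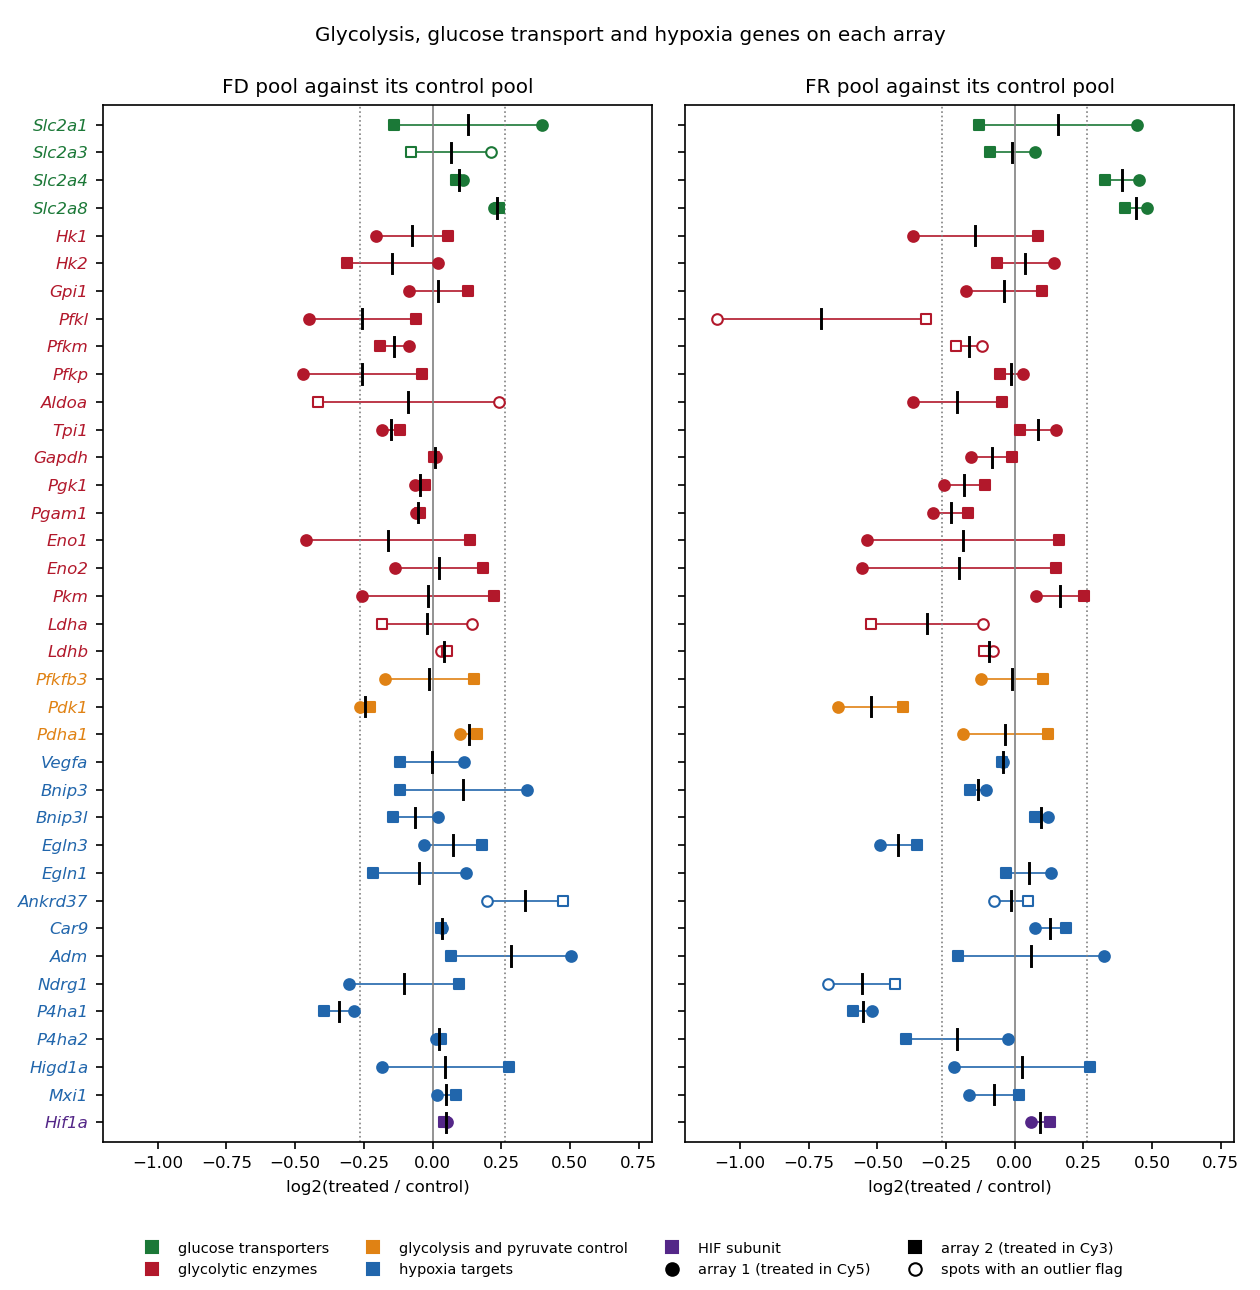
Each row is 1 of the 37 genes, coloured by role, with log2(treated/control) in the FD comparison (left) and the FR comparison (right). Circles are array 1, squares array 2, black ticks their mean, open symbols values with outlier-flagged spots kept, and dotted lines mark 1.2-fold; in FR both symbols of Slc2a4 and Slc2a8 lie to the right of the upper line, and both symbols of Pdk1, Egln3 and P4ha1 to the left of the lower one, as do the open symbols of Pfkl and Ndrg1.

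The glucose transporters were the group with the highest median, 0.13 in FD over 3 measured genes and 0.27 in FR over all 4. Slc2a8, a transporter found mainly on membranes inside the cell, had log2 ratios of 0.23 and 0.24 on the FD arrays and of 0.48 and 0.40 on the FR arrays. Its mean was 1.18-fold higher in FD and 1.36-fold higher in FR. All 4 arrays read it higher in the treated pool, and it passed 1.2-fold on both arrays in FR alone. On the log2 intensity scale the control pools gave 8.81 and 8.75, the FD pool 9.04 and the FR pool 9.19, and no array of a treated pool overlapped one of a control pool. A second, dimmer probe 3020 bases away read the gene closer to its control, at 0.02 in FD and 0.13 in FR. The mean over both probes ended the call.

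Slc2a4, the insulin-responsive transporter of muscle and fat that is also present in neurons, had log2 ratios of 0.45 and 0.33 in FR, a mean 1.31-fold higher. In FD its ratios were 0.11 and 0.09. Its level was 8.76 and 8.63 on the FR arrays against 8.31 and 8.30 in the FR control pool, while FD (8.45 and 8.52) lay just above its own control (8.34 and 8.44). Muscle markers had a median log2 ratio of -1.58 in FD, where Slc2a4 was at 0.10, and of 0.00 in FR, with 0 of 12 past 1.2-fold. Fat markers had medians of -0.72 in FD and 0.03 in FR, and Fabp4, the fat cell lipid carrier, was 8.48-fold lower in FD. Cidea, a lipid droplet protein, had ratios of -0.67 and -0.69 in FR and was the 1 of 5 measured fat markers lower by 1.5-fold on both FR arrays. The part of muscle and fat cells in the Slc2a4 values was not tested.

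The main transporters of the blood-brain barrier and of neurons did not pass 1.2-fold on both arrays. Slc2a1, which carries glucose across the barrier endothelium, had ratios of 0.40 and -0.14 in FD and of 0.45 and -0.13 in FR. Array 1 was high and array 2 low in both comparisons, so the sign changed with the dye. The mean over both arrays, in which the dye orientations are balanced, was 0.13 in FD and 0.16 in FR. Slc2a3, the neuronal transporter, was measured in FR only, at 0.07 and -0.09. With flagged spots kept it read 0.21 and -0.08 in FD.

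Among the glycolytic enzymes, 13 were measured in FD and 12 in FR, and 0 of them passed 1.2-fold on both arrays in either comparison. Their median log2 ratio was -0.07 in FD and -0.11 in FR. In FR the median was -0.22 on array 1 and 0.01 on array 2, so its size rests on array 1. The group lay below 0 in mean in 10 of 13 genes in FD (48.4% of all genes) and in 9 of 12 in FR (48.2% of all genes). Below 0 on both arrays were 6 of 13 in FD (23.3% of all genes) and 4 of 12 in FR (27.4% of all genes).

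On the brightest measured probe, the lowest enzyme means in FD were those of Pfkp and Pfkl, isoforms of phosphofructokinase, the enzyme of the committed step. Pfkp had ratios of -0.47 and -0.04, and Pfkl of -0.45 and -0.06. Array 1 was low and array 2 close to 0 for both. A dimmer Pfkp probe, also measured in FD, read 0.16 and 0.17, so the measured probes of Pfkp disagreed in sign there. In FR, Pgam1, a phosphoglycerate mutase, had ratios of -0.30 and -0.17. Aldoa, an aldolase, had -0.37 and -0.05 in FR. Gapdh, Pgk1 and Pgam1, on the brightest probe measured in FD, lay between -0.06 and 0.01 on both FD arrays.

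Several enzymes turned sign with the dye. Eno1, the ubiquitous enolase, had -0.46 and 0.14 in FD and -0.54 and 0.16 in FR. Eno2, the neuronal enolase, had -0.55 and 0.15 in FR, and Hk1, the main hexokinase of brain, had -0.37 and 0.08. Both have a brighter probe that was flagged in FR. With flagged spots kept, it read -0.17 and -0.10 for Eno2, with no change of sign, and 0.04 and -0.01 for Hk1. The dye part, which is the difference of array 1 and array 2 divided by 2, was -0.30 for Eno1 in FD and -0.35 in FR. Over the 29 members with a probe measured on all 4 arrays it correlated between FD and FR at r = 0.818, and over all 23376 probes at r = 0.652. Those arrays share 1 slide and the 4 hybridisations share the dyes.

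**Figure D2:**
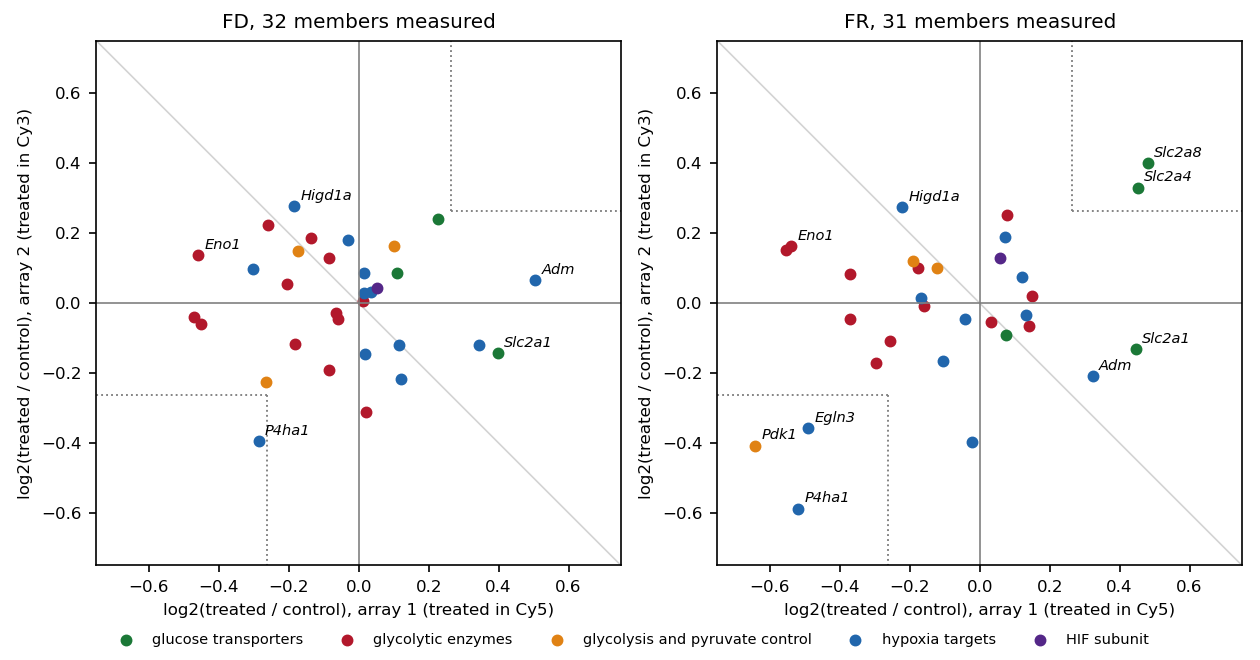
Log2(treated/control) on array 1 (x axis) against array 2 (y axis) for each measured member, 32 in FD and 31 in FR, coloured by role. Points near the falling diagonal, such as Slc2a1, Eno1 and Higd1a, change sign with the dye; dotted corners enclose members past 1.2-fold on both arrays, 1 in FD and 5 in FR.

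Keeping flagged spots brought back every enzyme and moved the FR picture downward. All 16 were then measured, with medians of -0.08 in FD and -0.18 in FR, and the FR median was -0.21 on array 1 and -0.14 on array 2. In FR 14 of 16 means lay below 0 (48.8% of all genes in the same setting) and 12 of 16 lay below 0 on both arrays (28.3%). In FD these counts were 11 of 16 (47.5%) and 7 of 16 (22.7%). In this setting P4ha1 was again the 1 member past 1.2-fold on both arrays in FD, where 2.31% of genes passed. In FR 8 of 37 members passed, 2 higher and 6 lower, against 8.52% of 20597 genes, 4.04% higher and 4.48% lower. The 3 added genes were Pfkl, Pfkp and Ndrg1, all lower.

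Pfkl, the liver-type phosphofructokinase, read -1.08 and -0.32 in FR with flagged spots kept, and its spot carried the flag on 1 of these arrays. Its mean was 1.63-fold lower. The arrays shared the sign but differed by more than 3 times in size on the log2 scale. Pfkp, the platelet type that is abundant in brain, read -0.31 and -0.46 on its brightest probe, while the dimmer probe that remained without flagged spots read 0.03 and -0.05. The remaining probe, also flagged, read -0.17 and -0.05. The 3 FR means lay between -0.39 and -0.01, so the probes of Pfkp differed in size.

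Ldha, the lactate dehydrogenase subunit that favours lactate formation, had both probes flagged in both comparisons. With flagged spots kept, its brighter probe read -0.11 and -0.52 in FR and its dimmer probe -0.52 and -0.52. In FD the brighter probe read 0.14 and -0.18 and the dimmer probe -0.11 and -0.14. Both probes of Ldha were below 0 on both FR arrays. In FD the dimmer probe was below 0 on both arrays and the brighter probe changed sign with the dye. Ldhb, the other main subunit, read -0.08 and -0.11 in FR and 0.03 and 0.05 in FD. Tpi1, the triose isomerase, read -0.42 and -0.18 in FR on its bright probe, against 0.15 and 0.02 on the dim probe that had no flags. Pkm, the pyruvate kinase of brain, read -0.23 and -0.05 in FR on its brightest probe and 0.08 and 0.25 on its dimmest. Its probe of middle brightness, also flagged, read -0.66 and 0.08, so its sign changed with the dye.

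To set these against other bright genes, all genes whose brightest probe was measured only with flagged spots kept were counted. In FR there were 3326, of which 51.9% had a mean below 0 and 33.3% were below 0 on both arrays. Of the 13 members of that kind, 12 had a mean below 0 and 11 were below 0 on both arrays. Their median was -0.17, with -0.14 on array 1 and -0.18 on array 2. That of the 3326 genes was -0.01, with 0.05 on array 1 and -0.07 on array 2. In FD 8 members were of that kind, of which 4 had a mean below 0 and 2 were below 0 on both arrays, against 46.1% and 23.6% of 2445 genes. With 1 pool per condition, no spread between animals stands behind these counts.

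**Figure D3:**
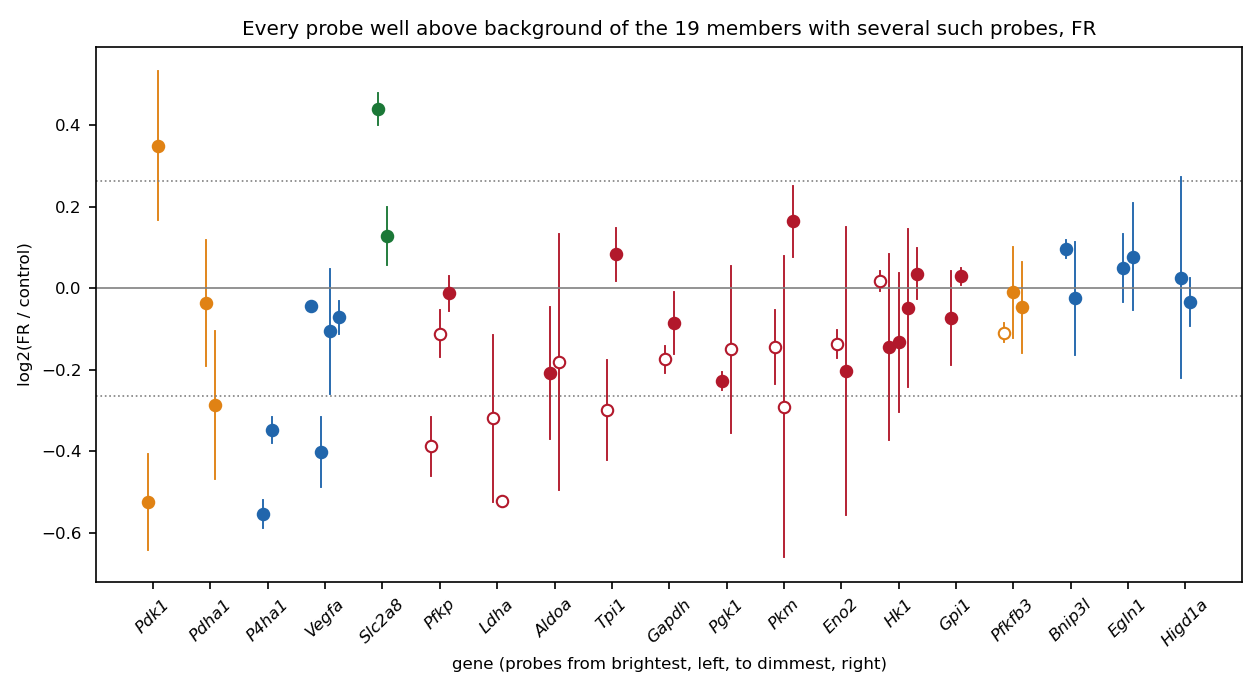
Log2(FR/control) for every probe well above background of the 19 members that have several such probes, coloured by role. Points are means of both arrays, vertical lines run from one array to the other, and open points include a flagged spot; the probes of Pdk1 lie on opposite sides of 0, those of P4ha1 and Ldha all lie below it.

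Pgk1, a phosphoglycerate kinase, needs care. Both of its probes are placed by the array files on chromosome 3 (mm9), while RefSeq has the gene on chromosome X, so its values are uncertain as a measure of the gene. The other 66 member probes lie on the chromosome of their gene. Pgk1 had ratios of -0.06 and -0.03 in FD and of -0.26 and -0.11 in FR.

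Pdk1 encodes a pyruvate dehydrogenase kinase, which holds pyruvate back from oxidation in the mitochondria and is a well-known hypoxia target. Its brighter probe had ratios of -0.64 and -0.41 in FR, a mean 1.44-fold lower, and of -0.26 and -0.23 in FD, a mean 1.19-fold lower. The level was 11.12 and 11.06 in the FD control pool, 11.12 and 10.99 in the FR control pool, 10.85 and 10.84 in the FD pool and 10.48 and 10.59 in the FR pool. All control values lay above all treated values, and the FR pool was lowest. The second probe read the other way. It had ratios of 0.41 and 0.03 in FD and of 0.53 and 0.17 in FR, and the distance between both probes, 0.87 in FR on the log2 scale, was the largest among the 11 members with several measured probes there. The mean over both probes was -0.09 in FR and ended the call. The probes lie 2132 bases apart on chromosome 2, on the plus strand of mm9, and their first 30 bases are given because the direction of this gene depends on which is read.
Pdk1 brighter probe, chr2:71741820-71741879: cacaatcctggcattcttaaatgactgtat
Pdk1 dimmer probe, chr2:71739688-71739747: agccaaatcatgtgacatggcacaaaatag

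The array files do not say which transcript or exon either probe covers, so neither reading can be tied to an isoform. Pdha1, the catalytic subunit that Pdk1 phosphorylates, had ratios of 0.10 and 0.16 in FD and of -0.19 and 0.12 in FR. Its dimmer probe gave -0.17 and -0.20 in FD and -0.47 and -0.10 in FR, below the brighter one. For Pdk1 the dimmer probe lay above the brighter one. Pfkfb3, which makes the activator of phosphofructokinase, had a mean of -0.01 in FD on its brightest probe. In FR that probe was flagged and read -0.13 and -0.08 with flagged spots kept. A much dimmer probe without flags had an FR mean of -0.01.

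Of the hypoxia targets, 12 were measured in FD and 11 in FR, with median log2 ratios of 0.03 and -0.04. P4ha1, a subunit of the collagen prolyl hydroxylase and a direct target of hypoxia-inducible factor, was the member that passed 1.2-fold in both comparisons. Its ratios were -0.29 and -0.40 in FD, a mean 1.27-fold lower, and -0.52 and -0.59 in FR, a mean 1.47-fold lower. The level was 8.82 and 8.83 in the FD control pool against 8.53 and 8.43 in FD, and 8.95 and 8.89 in the FR control pool against 8.43 and 8.31 in FR. Treated and control values did not overlap in either comparison. A second probe 284 bases upstream gave 0.00 and -0.28 in FD and -0.32 and -0.38 in FR. Both probes were thus lower on both FR arrays, and in FD the second was lower on array 2 only. The start of each probe on chromosome 10 is given, since each P4ha1 probe had a mean below 0 under both diets.
P4ha1 brighter probe, chr10:58834272-58834331: tggtaactaactagggcccagtcaggtctg
P4ha1 dimmer probe, chr10:58833988-58834047: ttaatactcaatcaccacatgatgtaaaac

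Egln3, a prolyl hydroxylase that marks hypoxia-inducible factor for breakdown and is itself induced by it, had ratios of -0.49 and -0.36 in FR, a mean 1.34-fold lower. In FD they were -0.03 and 0.18. Its level was 7.98 and 8.02 in the FR pool and between 8.26 and 8.47 in the other 3 pools on all of their arrays. The paralogue Egln1, the main oxygen sensor of this family, had a mean of -0.05 in FD and 0.05 in FR.

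**Figure D4:**
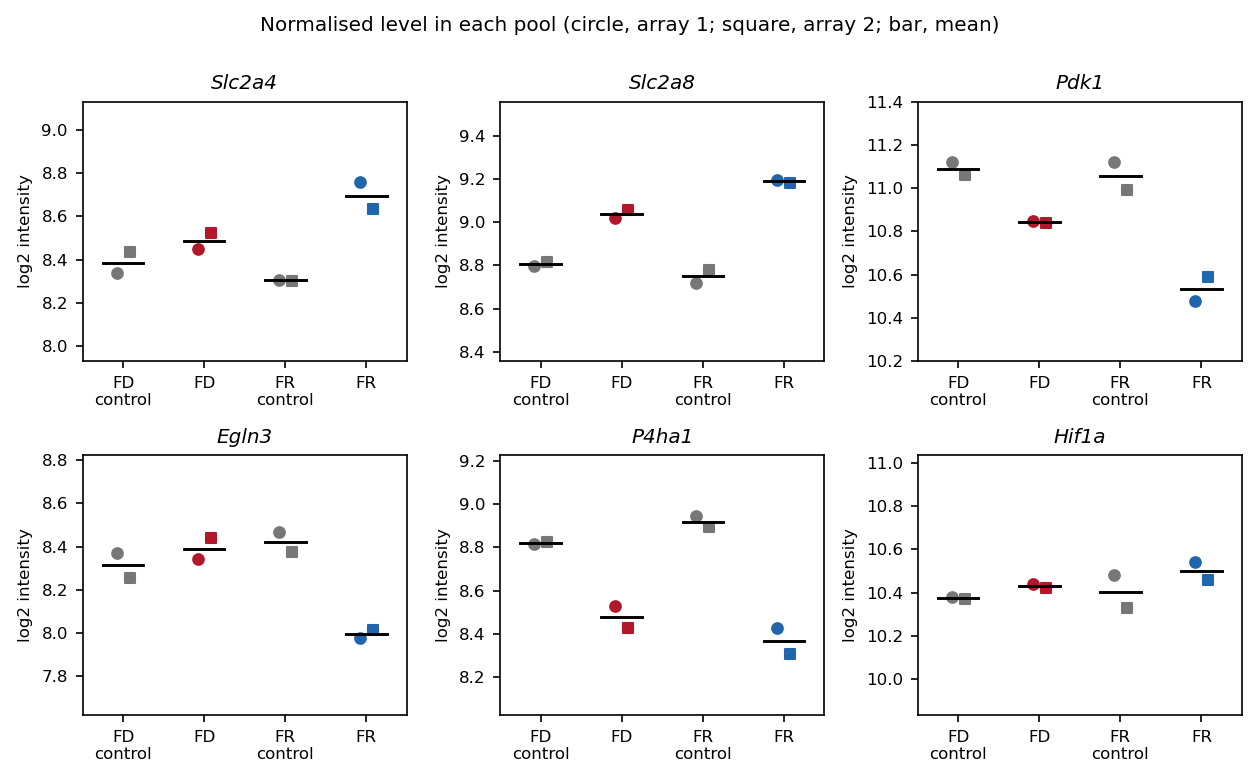
Normalised log2 intensity of the 5 members past 1.2-fold in FR, and of Hif1a, in the FD control, FD, FR control and FR pools. Circles are array 1, squares array 2 and bars their mean, and every panel spans the same range; Egln3 is lower in the FR pool only, P4ha1 and the brighter Pdk1 probe are lower in both treated pools, and Hif1a stays between 10.33 and 10.54.

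Ndrg1, a stress-response gene strongly induced by low oxygen, was flagged in FR. With the flagged spot kept it read -0.68 and -0.43, a mean 1.47-fold lower. In FD it read -0.30 and 0.10. P4ha2, the second collagen hydroxylase subunit, had ratios of -0.02 and -0.40 in FR and of 0.01 and 0.03 in FD. Adm, the vasodilator peptide adrenomedullin, had 0.50 and 0.07 in FD and 0.32 and -0.21 in FR, higher on array 1 each time. Ankrd37 was flagged in both comparisons and read 0.20 and 0.48 in FD, and -0.07 and 0.05 in FR, with flagged spots kept.

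The angiogenic factor Vegfa was represented by 4 measured probes. The brightest read 0.11 and -0.12 in FD and -0.04 and -0.05 in FR. The next in brightness read -0.14 and -0.06 in FD and -0.49 and -0.31 in FR, a mean of -0.40, while the other two had FR means of -0.10 and -0.07. All 4 probe means were below 0 in FR, and only that one was past 1.2-fold on both arrays. The mitophagy receptors Bnip3 and Bnip3l had FR means of -0.13 and 0.10, and the carbonic anhydrase Car9 had 0.13. Higd1a, a mitochondrial protein of the hypoxia response, changed sign with the dye in both comparisons. Mxi1, a Myc antagonist, had means of 0.05 in FD and -0.08 in FR.

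Hif1a had ratios of 0.05 and 0.04 in FD and of 0.06 and 0.13 in FR. Its probe lies on chromosome 12 (chr12:75047269-75047329, mm9). Hypoxia-inducible factor is controlled mostly through the stability of this protein, which arrays do not measure.

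The core of the hypoxia response element was searched as ACGTG or GCGTG on either strand, in windows from 250 bases before to 50 after each transcription start in RefSeq (GRCm38.p6). The core is palindromic in part, so CACGTG counts on both strands. Windows existed for 33 of the 37 members, with none for Slc2a3, Slc2a4, Bnip3l or Ndrg1. At least 1 core stood in a window of 30 of 33 members, against 46.7% of 27025 genes, and 38 of 48 windows held one, against 43.8% of 32851 windows. ACGTG alone was present in 22 of the 33 members and in 21.8% of all genes, and GCGTG in 22 members and 35.2% of all genes. Eno2, Gpi1 and Tpi1 held neither. A match describes letters only and is not a bound site, and most members held a core whatever their ratio was. Members were listed for roles in glycolysis or hypoxia, so their share against all genes says nothing about FD or FR. The shares of all genes were not matched for base content.

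Windows are shown for the 3 members at least 1.2-fold lower on both FR arrays on the brightest measured probe. They cover the 250 bases before the start, 5′ to 3′ on the gene's strand, with each core in capitals. P4ha1 has cores starting 163, 126 and 16 bases before the start. Pdk1 has cores starting 78 and 2 bases before it, the second running past the end shown, and a second Pdk1 window held none. Egln3 has 1 core, 229 bases before the start. Slc2a8, which was higher in FR, also has 1 core, 173 bases before the start, and its window is not shown.
P4ha1, chr10:59323046-59323295, plus strand: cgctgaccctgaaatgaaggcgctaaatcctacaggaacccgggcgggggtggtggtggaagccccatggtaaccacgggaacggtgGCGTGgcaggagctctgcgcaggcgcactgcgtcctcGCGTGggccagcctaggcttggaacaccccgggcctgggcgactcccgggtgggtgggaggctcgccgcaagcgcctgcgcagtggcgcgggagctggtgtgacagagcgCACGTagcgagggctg
Pdk1, chr2:71872974-71873223, plus strand: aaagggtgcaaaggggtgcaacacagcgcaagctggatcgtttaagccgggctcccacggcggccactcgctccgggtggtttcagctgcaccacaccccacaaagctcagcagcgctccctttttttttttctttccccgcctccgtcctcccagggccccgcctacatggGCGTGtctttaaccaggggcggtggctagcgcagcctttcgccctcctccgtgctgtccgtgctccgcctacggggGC
Egln3, chr12:54203875-54204124, minus strand: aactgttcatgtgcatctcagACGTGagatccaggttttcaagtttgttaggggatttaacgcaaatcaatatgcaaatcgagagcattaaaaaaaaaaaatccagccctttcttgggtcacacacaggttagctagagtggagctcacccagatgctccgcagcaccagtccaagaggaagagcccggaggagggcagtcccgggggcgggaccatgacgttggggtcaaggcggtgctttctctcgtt

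For FD against FR, ratios of arrays with the same dye orientation were subtracted on the 29 members with a probe measured on all 4 arrays. Egln3 was the 1 member past 1.2-fold in both differences, which were 0.46 and 0.54, higher in FD. Of 16926 genes, 2.85% were higher in FD by that size and 2.45% lower. Slc2a4 had differences of -0.34 and -0.24, Slc2a8 of -0.25 and -0.16, and Pdk1 of 0.38 and 0.18. For P4ha1 they were 0.23 and 0.19. These 4 members had the same sign of ratio in FD as in FR and were nearer to 0 in FD, by amounts that fell short of the size on at least 1 pair of arrays.

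Other genes of these pathways were read from 6 lists with 94 genes, of which 84 were measured in FD and 83 in FR. In FD, 4 were at least 1.2-fold higher (1.18% of all genes) and 2 lower (0.991%) on both arrays. In FR, 8 were higher (3.84%) and 6 lower (4.17%). With flagged spots kept, 6 of 90 were higher in FR (4.04% of all genes) and 6 lower (4.48%). Tfrc in FD, and Tkt and Slc16a7 in FR, passed 1.5-fold on both arrays. With flagged spots kept, 0 of these genes were higher by 1.5-fold in FR, so the call of Tkt was lost.

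**Figure D5:**
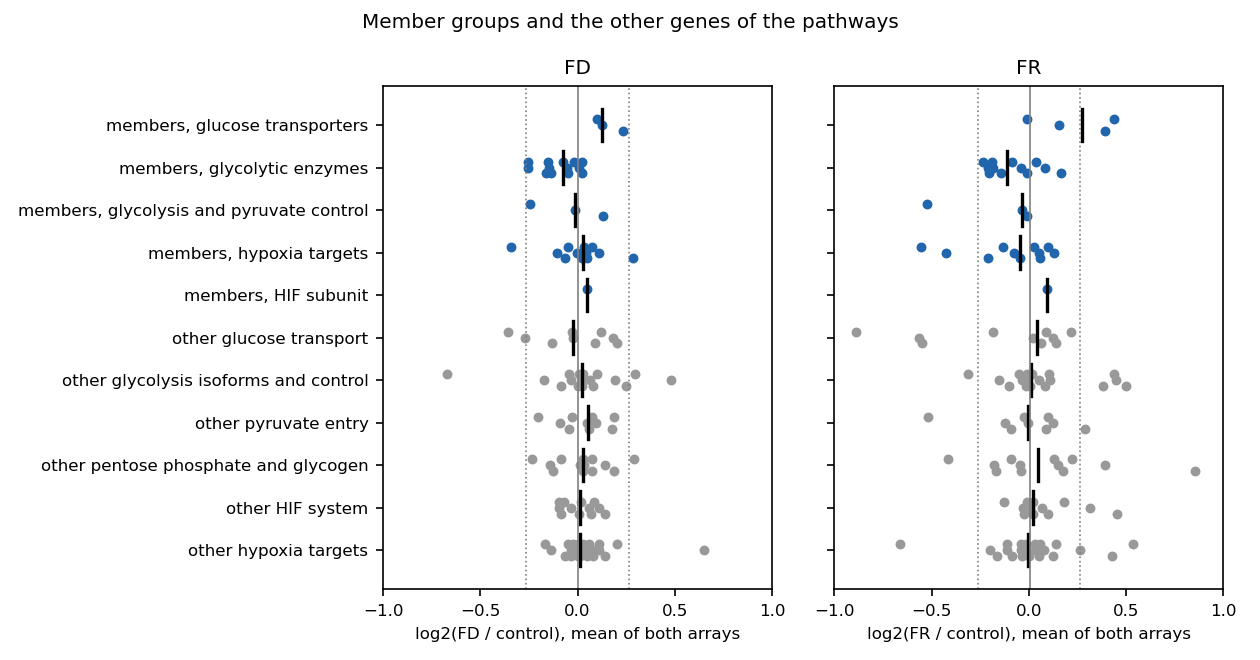
Mean log2 ratio over both arrays of each measured gene, in FD (left) and FR (right), for the 5 member groups (blue) and the 6 lists of other pathway genes (grey). Black bars are medians, the grey line is the median of all genes and dotted lines mark 1.2-fold. Glucose transporters have the highest medians, 0.13 and 0.27, which were larger on array 1 than on array 2. Single genes such as Slc16a7 and Tkt in FR stand outside the lines.

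A pair of monocarboxylate transporters, which move lactate, pyruvate and ketone bodies, was lower in FR by at least 1.2-fold on both arrays. Slc16a7 had ratios of -0.87 and -0.91, a mean 1.85-fold lower, and -0.39 and -0.32 in FD. Slc16a3, the exporter of lactate from glycolytic cells, had -0.51 and -0.59 in FR and -0.02 and -0.25 in FD. Slc2a6, a lysosomal hexose transporter, had -0.73 and -0.40 in FR and -0.35 and -0.19 in FD. Slc16a1, the broadly expressed monocarboxylate carrier, had means of 0.09 in FR and 0.20 in FD. Of this list 3 genes were lower by 1.2-fold in FR and 0 higher, of 10 measured, and its FR median was 0.04.

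Among other glycolysis genes, Pfkfb2, a further regulator of phosphofructokinase, had a mean of 0.29 in FD and 0.45 in FR, past 1.2-fold on both arrays each time. Pgam2, the muscle phosphoglycerate mutase, was 1.59-fold lower in FD, where the skeletal muscle markers had a median of -1.58 and their summed log2 level was 11.25 in the FD pool, 13.14 in its control and 11.53 and 11.54 in the FR pool and its control; their part in this result was not tested. Of that marker list 11 of 12 genes were measured in FD, and Ckm was not well above background there. Eno3, the muscle enolase, had a mean of -0.17 in FD and 0.50 in FR.

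Pdk3, another pyruvate dehydrogenase kinase, also had probes that differed. Its brighter probe was at -0.56 and -0.48 in FR and its second probe at -0.21 and 0.28. Pdk4, the kinase raised by fasting in many tissues, had means of 0.18 in FD and 0.29 in FR and did not pass 1.2-fold on both arrays. In the pentose phosphate pathway, Tkt, transketolase, had 0.97 and 0.74 in FR on a dim probe, while its much brighter probe, flagged there, read -0.40 and 0.00. Aldoc, the brain aldolase, differed likewise, with 0.79 and 0.78 in FD and 0.33 and 0.55 in FR on the dimmer probe and -0.04 and 0.08, and -0.25 and -0.25, on the brighter one. Gbe1, the glycogen branching enzyme, had means of 0.29 in FD and 0.39 in FR.

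In the list of the hypoxia-inducible factor system, Arnt2, the neuronal partner subunit, had 0.38 and 0.53 in FR and Epas1, the second alpha subunit, a mean of 0.32. Among other hypoxia targets, the transferrin receptor Tfrc had 0.64 and 0.66 in FD, a mean 1.57-fold higher, and 0.45 and 0.41 in FR. Vldlr, a lipoprotein receptor, had a mean of 0.53 in FR, with its second probe at -0.08. Ppp1r3c, which targets phosphatase to glycogen, had -0.53 and -0.80 in FR, with its second, much dimmer probe at -0.13. The median of this list was 0.01 in FD and 0.00 in FR, so its members did not share a direction.

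Markers of cells that could carry these genes were set beside the FR values. Of 8 astrocyte and radial glia genes, 2 were at least 1.2-fold lower, Aqp4 and S100b, and the list had a median of -0.28 in FR and 0.08 in FD. Its summed log2 level over 7 genes was 12.28 in the FR pool and 12.40, 12.45 and 12.48 in the others. Fabp7, the brightest gene of the list, was flagged in FD and is not in that sum. Endothelium and pericyte genes had a median of -0.11 in FR, with 0 of 10 measured past 1.2-fold, and neuronal genes -0.10, with 0 of 6. Red blood cell genes had a median of 0.25 in FR over 4 of 10 genes, with 0.50 on array 1 and 0.04 on array 2. In FD it was -0.37 over 3 of 10 genes, with -0.05 on array 1 and -0.43 on array 2. The neutrophil list had a median of 0.38 in FR over 4 of 8 genes. The part of these cell types in the FR values of Pdk1, Egln3, P4ha1 and the transporters was not tested.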

How the data were processed

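RNA pools of fetal brain were compared on 4 arrays of 1 slide, each in 2 colours. The deposited scanner files hold mean spot and median background intensity per channel and a log10 ratio of red over green, per the file headers, read with Agilent Feature Extraction 9.5.3.1, per the submitters' processing notes. Per the file headers, each spot also has flags for signal over background, saturation and outliers, coded 0 or 1. The authors' deposited value table equals the scanner's log2 ratio where spots are well above background (r = 1 on array 1 and -1 on the swapped array 2 of each comparison), so it is treated over control without further centring; how dim spots were valued is unknown, and its column medians were -0.03, 0.03, -0.03 and 0.01.

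Spots whose local background was above 2 times the array median were left out (3 and 44 on the affected arrays, where it reached 65319), then normexp (offset 50) and loess were run in limma 3.58.1 (R 4.3.3), with control spots at weight 0. Control and outlier-flagged spots were left out and spots of a probe averaged. Probes well above background in each channel of both arrays counted as measured, and the brightest of a gene was used. Levels used Aquantile scaling between arrays. Other genes were named through accessions in RefSeq (GRCm38.p6), 26910 of 41174 probes. Probe coordinates are mm9.

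Members, lists and rules were chosen with earlier results of these data known. Named are members past 1.2-fold on both arrays, else the 2 largest means of a group, and at most 3 other genes per list or those past 1.5-fold; further members were added after their values were seen. The steps were tested on simulated data. Alternatives changed normalisation, background, filter, probe choice, arrays and flags. The number of arrays limits the precision. The values of 1 other pathway gene are not reported here.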

Additional observations from a re-analysis of the deposited data

Results flagged for a closer look

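On the brightest probe measured on all 4 arrays, a pair of members had ratios of one sign on both FD arrays and of the other sign on both FR arrays. On its dim probe, Tpi1 had ratios of -0.18 and -0.12 in FD and of 0.15 and 0.02 in FR, and FD minus FR was -0.23. P4ha2 had 0.01 and 0.03 in FD and -0.02 and -0.40 in FR. Its mean FD minus FR was 0.23, with 0.04 on array 1 and 0.43 on array 2, so the size rests on array 2. The FD mean of P4ha2, 0.02, was smaller than the technical SD of 0.0731. The difference was not tested for either gene, since each condition is 1 pool. The bright probe of Tpi1, which carries outlier flags, read -0.42 and -0.18 in FR and so did not share the sign of the dim one. With flagged spots kept, Gapdh and Ldhb on their brightest probes were also above 0 on both FD arrays and below 0 on both FR arrays.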

How the results depend on the processing

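The count of members past 1.5-fold was 0 in FD under each setting tried. In FR it was 1, P4ha1, with the scanner's log ratio and with the series' value table, and 1 without either array. Past 1.2-fold on both arrays, FD went from 1 to 0 under median centring without loess and under the mean over all measured probes, and ranged from 3 to 9 when 1 array was left out. FR went from 5 to 0 under median centring without loess, to 1 under normexp fitted on all spots, to 3 under the mean over probes and to 8 with flagged spots kept, and ranged from 7 to 12 with 1 array left out. The median of the glycolytic enzymes ranged from -0.14 to -0.03 in FD and from -0.22 to 0.01 in FR with 1 array left out. For hypoxia targets in FD it was 0.0731 without loess, 0.0537 with the scanner's ratio or the value table, 0.0073 with the mean over probes and 0.0166 to 0.0303 with 1 array left out. In FR it was -0.108, -0.0378 and -0.0768 in the same order, -0.0515 with normexp on all spots and -0.0467 to -0.041 with 1 array left out. No mean of a member past 1.2-fold changed sign; the causes of these shifts were not tested. Values of single members moved beyond their technical spread in 40 cases and did not in 653. No paired analysis was possible because no result comes from a test and the arrays of a comparison share their pools. Probes of 1 gene can disagree, and bright probes were lost to flags.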
